A study of Mus musculus with 6 samples.

Results

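Titin and the proteins of the Z-disc and the M-band were followed through 9 genes: Ttn, Actn2, Ldb3, Myoz2, Tcap, Csrp3, Nebl, Myom1 and Myom2. The genes were taken by symbol, and the transcript rows of each gene in the deposited table of embryonic hearts were summed. All 9 were found among the 26199 genes of the table. Of these 9 genes, 8 were tested, since their FPKM (fragments scaled by transcript length and by library depth) was 1 or more in 3 or more of the 6 libraries, as it was for 13262 genes in all. Myom2 stayed below that level and was not tested.

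Control hearts came from Mrps5 fl/fl mouse embryos and mutant hearts from their Mrps5 fl/fl; cTNT-Cre littermates, all labelled embryonic day 12, with 3 libraries in each group. By these labels both groups carried 2 floxed Mrps5 alleles, while a supplementary legend of the study writes the mutant hearts of this stage as fl/+ with Cre, so the number of floxed alleles in them is uncertain. The main text of the study gives a slightly later stage for these hearts, and reports that mutant embryos die at about that stage. Cre was expressed from the promoter of cardiac troponin T, so that deletion is directed to cardiomyocytes, while the tissue sequenced was whole hearts pooled within each library. A group with Cre and no floxed allele was not analysed here. Mrps5 encodes a protein of the small subunit of the mitochondrial ribosome, and the comparison asked what its loss did to the transcriptome of the developing heart.

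Mrps5 itself stood at 9.65, 11.4 and 10.4 FPKM in the control libraries, in the order of their replicate numbers, at 5.28 and 7.41 in mutant replicates 1 and 2, and at 10.4 in the library labelled mutant replicate 3. That last library lay within the control range, against its label, so the fold changes and ratios of the members are also given without it. The FPKM covers the whole gene in all cells of the heart, so reads outside the floxed part and from cells without Cre count too. The log2 fold change of Mrps5 was -0.44 (SE 0.19, adjusted p = 0.339, limma), -0.66 without the library labelled mutant replicate 3 and -0.23 without mutant replicate 1. Depth, read from the steps between low FPKM values, was between 16700000 and 27100000 fragments per library. The 9 cardiomyocyte markers made up 1.99% to 2.41% of summed FPKM in control and 1.46% to 1.88% in mutant libraries, which did not overlap, and all 9 were detected in every library. The erythroid genes, 14 of the 15 listed being in the table and 5 of them higher at an unadjusted p under 0.05, made up 12.3%, 13.3% and 12.0% in control libraries, 23.5% and 10.8% in mutant replicates 1 and 2 and 22.0% in the library labelled mutant replicate 3, which overlapped. Summed FPKM includes the erythroid genes, so a larger erythroid share makes the marker share smaller. Whether the marker shares also stay apart without the erythroid genes was not tested. In bulk hearts, fewer cardiomyocytes and less RNA per cardiomyocyte cannot be told apart.

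The sarcomere, the contractile unit of muscle, is bounded at each end by a Z-disc, where α-actinin crosslinks actin filaments of neighbouring sarcomeres, and is held together in its middle by the M-band, where myomesins crosslink myosin filaments. Titin, the largest known protein of muscle, runs from the Z-disc to the M-band and serves as a spring and as a ruler for sarcomere assembly. In the embryonic heart these proteins are laid down as cardiomyocytes build their first beating myofibrils, and mutations in several of them cause cardiomyopathy.

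Of the 8 members tested, Ttn, Ldb3, Myoz2, Tcap and Myom1 were lower in mutant hearts at an unadjusted p under 0.05, a count of 5, with none higher. None passed after Benjamini-Hochberg adjustment over all genes in limma. Over all genes tested, 9.43% were lower and 5.58% were higher at the unadjusted threshold, and 0.0829% (11 genes) passed at an adjusted p under 0.05. All 8 log2 fold changes were below 0, where 55.0% of all genes were, with a median of -0.32 against -0.02 over all genes. Control and mutant libraries did not overlap for Ttn, Myoz2, Tcap and Myom1, and 13.0% of all genes were lower without overlap. Without the library labelled mutant replicate 3, 6 members were lower at the unadjusted threshold, with Nebl the addition, against 8.81% of all genes, and Tcap passed the adjusted threshold.

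**Figure D1:**
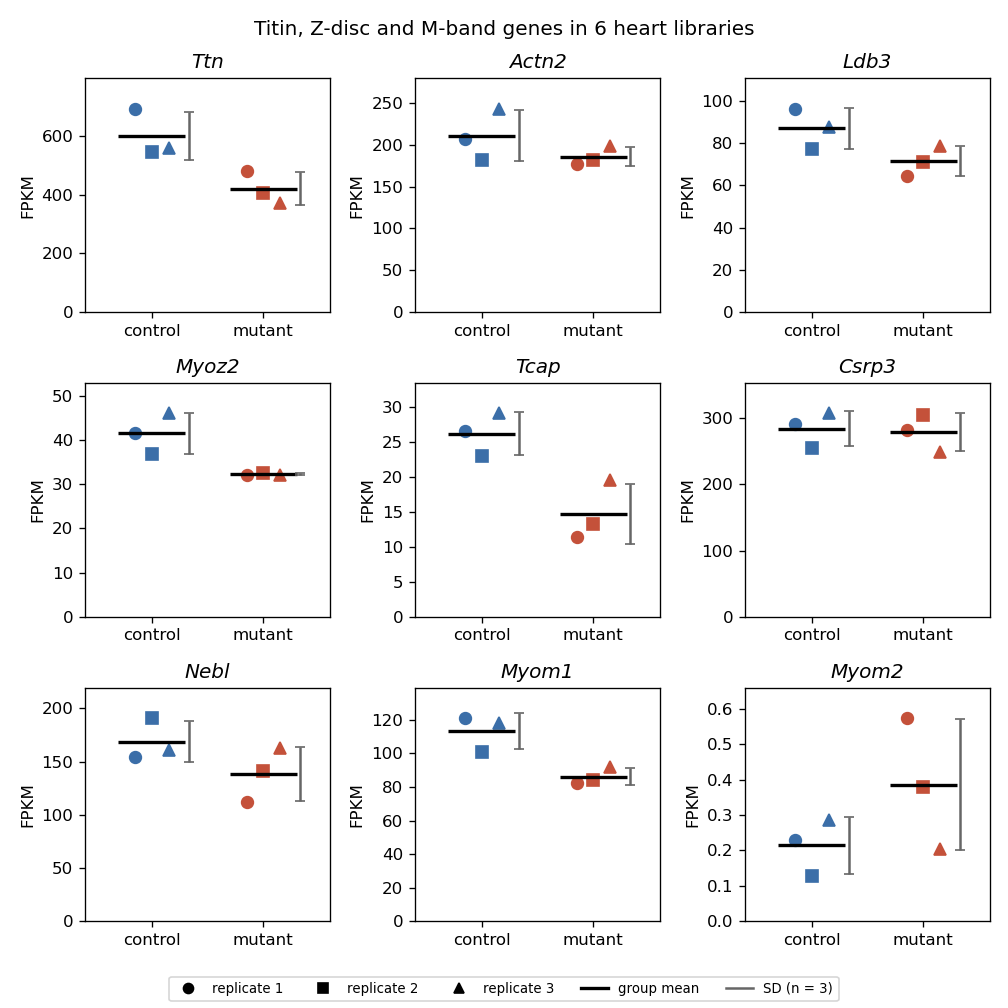
FPKM of the 9 members (vertical axes, from 0) in 3 control and 3 mutant libraries, each point a library, with the group mean as a black line and the SD as a grey bar. The mutant libraries lie below every control library for Ttn, Myoz2, Tcap and Myom1, and the groups overlap for Actn2, Ldb3, Csrp3, Nebl and Myom2.

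The promoters of 4 of the lower members are shown because these genes were lower together and each holds a match to a motif of muscle gene control, the MEF2 or the CArG box. Sequences are from RefSeq on GRCm38.p6, 250 bases before and 50 after an annotated start, and 7 of the 9 members had entries, with 12 promoters in all. Tcap and Myom2 had no entry, so their promoters were not searched. Capitals mark matches on either strand to the MEF2 box, the CArG box bound by serum response factor, the MCAT element CATTCC bound by TEAD factors, the GATA site AGATAA, or TATAAA.
Ttn, chr2:76982498-76982797, minus strand: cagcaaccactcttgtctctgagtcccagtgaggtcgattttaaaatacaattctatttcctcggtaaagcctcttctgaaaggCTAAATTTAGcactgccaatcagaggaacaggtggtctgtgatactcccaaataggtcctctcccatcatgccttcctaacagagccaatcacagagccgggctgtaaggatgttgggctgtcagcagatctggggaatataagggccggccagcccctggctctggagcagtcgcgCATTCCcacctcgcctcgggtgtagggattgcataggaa
Myoz2, chr3:123034938-123035237, minus strand: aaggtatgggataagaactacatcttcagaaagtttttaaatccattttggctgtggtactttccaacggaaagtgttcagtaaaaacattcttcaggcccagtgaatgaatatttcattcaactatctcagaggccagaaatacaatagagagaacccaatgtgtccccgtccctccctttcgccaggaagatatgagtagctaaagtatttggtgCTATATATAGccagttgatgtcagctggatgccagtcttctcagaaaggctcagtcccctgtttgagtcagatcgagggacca
Ldb3, chr14:34588632-34588931, minus strand: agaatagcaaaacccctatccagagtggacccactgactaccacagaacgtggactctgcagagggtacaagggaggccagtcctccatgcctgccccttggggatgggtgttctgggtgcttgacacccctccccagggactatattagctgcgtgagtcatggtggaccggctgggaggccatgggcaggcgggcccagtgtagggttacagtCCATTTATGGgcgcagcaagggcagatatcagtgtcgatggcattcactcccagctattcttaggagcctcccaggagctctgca
Myom1, chr17:71019307-71019606, plus strand: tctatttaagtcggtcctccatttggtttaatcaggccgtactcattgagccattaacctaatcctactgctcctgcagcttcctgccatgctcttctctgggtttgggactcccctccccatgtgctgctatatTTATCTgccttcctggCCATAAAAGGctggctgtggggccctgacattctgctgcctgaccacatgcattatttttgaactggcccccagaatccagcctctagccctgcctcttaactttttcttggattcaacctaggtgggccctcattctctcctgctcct
Ttn had a MEF2 match at bases -166 to -157 and an MCAT match at bases 12 to 17, counted from 1 at the start, and Myoz2 had a MEF2 match at bases -33 to -24. Ldb3 had a CArG match at bases -35 to -26, which its second annotated start also covers, and Myom1 had a CArG match at bases -99 to -90 and a GATA match at bases -115 to -110. A MEF2 match was present in 2 of the 12 member promoters and in 3.19% of 32817 promoters in all. A CArG match was present in 4 of the 12 (of Ldb3, Nebl and Myom1, the Ldb3 match being counted in 2 overlapping promoters) and in 1.63% of all. MCAT matches were in 2 of the 12 (of Ttn and Nebl; 14.7% of all), GATA matches in 3 (of Nebl and Myom1; 11.2%) and TATAAA in 0 (13.6%). The MEF2 and CArG patterns read the same on both strands and no matches overlapped. The promoters of Actn2 and Csrp3 held no match to these letters, and those of Nebl, which like them was not called, held CArG, MCAT and GATA matches. A match is a description of letters, and binding was not measured.

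Titin was the most abundant member by FPKM summed over its transcript rows, many of them partial. Its most abundant row, Ttn-203, averaged 275 in control and 186 in mutant hearts. The main row of Csrp3 lay above it, at 281 and 278, so the rank rests on the sum. Ttn (ENSMUSG00000051747) stood at 693, 547 and 559 FPKM in the control libraries, at 483 and 405 in mutant replicates 1 and 2, and at 372 in the library labelled mutant replicate 3. Every mutant library was below every control library, and the lowest value belonged to the library labelled mutant replicate 3, where Mrps5 matched the controls. Control and mutant means were 599 ± 81.0 and 420 ± 56.5 (SD, n = 3 each), with a log2 fold change of -0.51 (SE 0.14, unadjusted p = 0.00607, adjusted p = 0.174, limma). Between 474496 and 712777 estimated fragments per library lay behind these values, so counting error was small beside the spread between libraries. Without the library labelled mutant replicate 3, the log2 fold change was -0.43 (adjusted p = 0.233, limma).

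The table listed 21 transcript rows of Ttn, of which 10 were tested and 6 were lower at an unadjusted p under 0.05, against 6.22% lower and 4.02% higher of 20370 transcript rows tested. Names and exon counts are those of GENCODE M21. The longest abundant row, Ttn-203 with 347 exons, had an FPKM of 314, 253 and 258 in control and of 199, 181 and 178 in mutant libraries, with a log2 fold change of -0.55 (SE 0.11, unadjusted p = 0.00209, adjusted p = 0.304, limma). Ttn-202, a row of 45 exons, had 122, 94.3 and 97.1 in control and 97.8, 75.9 and 65.3 in mutant libraries. Its groups overlapped, and its log2 fold change of -0.40 (SE 0.18, unadjusted p = 0.0634, adjusted p = 0.505, limma) did not pass the unadjusted threshold. Of 2 partial rows of 34 exons, Ttn-209 was lower (log2 fold change -0.65, SE 0.18, unadjusted p = 0.0100), and Ttn-213 was not called (-0.36, SE 0.22, unadjusted p = 0.155). Without mutant replicate 1 both Ttn-202 (log2 fold change -0.55, unadjusted p = 0.0131) and Ttn-213 (-0.61, unadjusted p = 0.00296) were called.

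The shares of the 4 most abundant titin rows overlapped between the groups. Ttn-203 took 45.9% ± 0.507 (SD, n = 3) of the gene's summed FPKM in control and 44.6% ± 3.31 in mutant hearts, and Ttn-202 took 17.4% ± 0.217 and 18.9% ± 1.36. The 10 tested rows all had log2 fold changes below 0, from -0.78 to -0.12. Short rows count as much as long ones in a summed FPKM, and with rows weighted by their length, an alternative chosen after seeing the data, the log2 fold change of Ttn was -0.53 (SE 0.11, adjusted p = 0.142, limma). How fragments that several rows share were divided is not given in the sources used here, so the split between rows of a gene is uncertain.

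**Figure D2:**
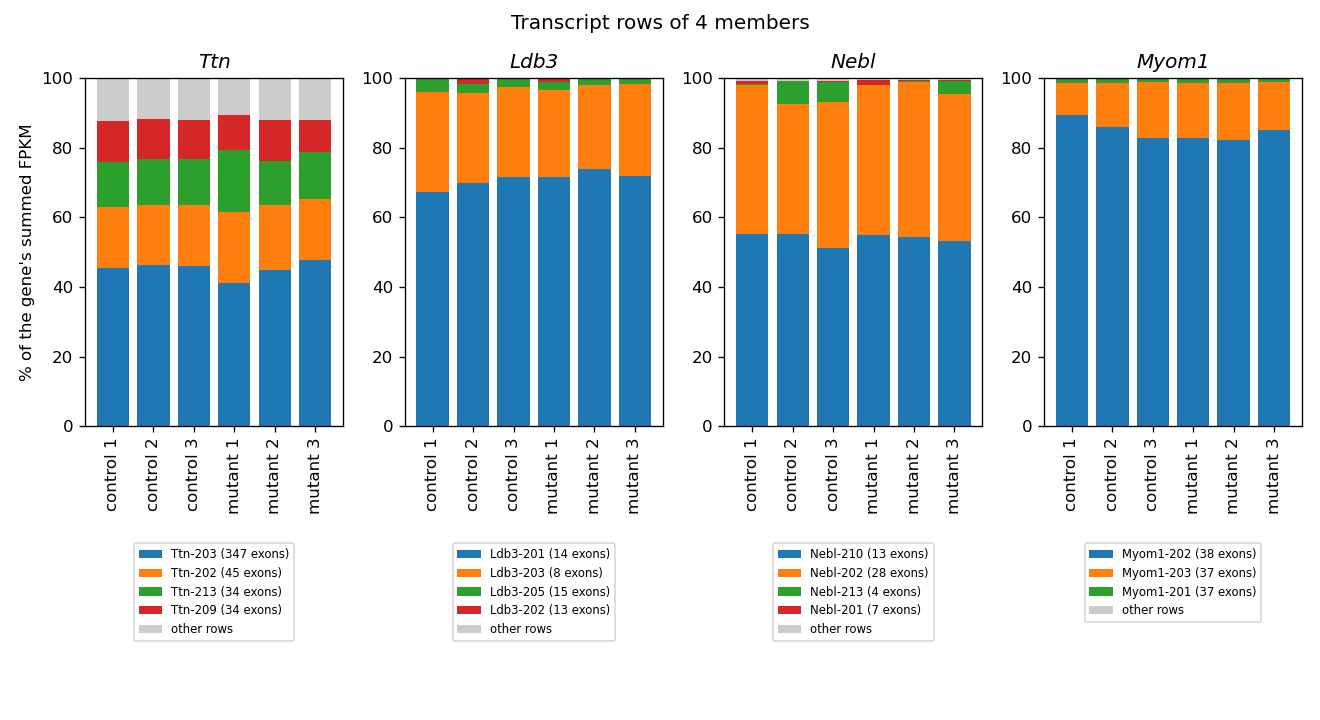
Share of the gene's summed FPKM (vertical axis, %) held by up to 4 most abundant transcript rows of Ttn, Ldb3, Nebl and Myom1 in each of the 6 libraries, with the remaining rows in grey. Ttn-203 holds between 41.3% and 47.9% of Ttn, and Myom1-202 between 82.2% and 89.4% of Myom1, with control and mutant libraries overlapping for both.

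Among the Z-disc members, Tcap had the log2 fold change farthest below 0. Tcap (ENSMUSG00000007877) encodes telethonin, which caps the ends of a pair of titin molecules at the Z-disc. Its FPKM was 26.6, 22.9 and 29.1 in control libraries, 11.4 and 13.2 in mutant replicates 1 and 2, and 19.6 in the library labelled mutant replicate 3. The last of these lay between the other mutant libraries and the lowest control, as Mrps5 was also highest there. Control and mutant means were 26.2 ± 3.08 and 14.7 ± 4.30 (SD, n = 3 each), with a log2 fold change of -0.82 (SE 0.18, unadjusted p = 0.00181, adjusted p = 0.140, limma). Without the library labelled mutant replicate 3 it was -1.03 (SE 0.12, adjusted p = 0.00562, limma), the 1 adjusted call among the members, in a fit that called 2.03% of all genes. Between 213 and 644 estimated fragments lay behind each Tcap value, fewer than for any other tested member.

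Myoz2 (ENSMUSG00000028116) encodes calsarcin-1, which binds α-actinin and the phosphatase calcineurin. Its FPKM was 41.7, 36.9 and 46.1 in control and 32.2, 32.6 and 32.2 in mutant libraries, and all 3 mutant values, the library labelled mutant replicate 3 included, lay below the lowest control. The log2 fold change was -0.35 (SE 0.09, unadjusted p = 0.00605, adjusted p = 0.174, limma), and -0.34 (adjusted p = 0.200, limma) without that library.

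Ldb3 (ENSMUSG00000021798) encodes ZASP or Cypher, a protein with a PDZ domain that binds α-actinin and maintains the Z-disc under load. Its FPKM was 96.3, 77.2 and 87.5 in control and 64.4, 71.0 and 78.7 in mutant libraries, and the last of these exceeded the lowest control. The log2 fold change was -0.28 (SE 0.11, unadjusted p = 0.0349, adjusted p = 0.299, limma). The call depended on the libraries used, since the unadjusted p was 0.126 without control replicate 1, 0.0799 without control replicate 3, 0.117 without mutant replicate 1 and 0.0689 without mutant replicate 2, against 0.0173 (log2 fold change -0.35) without the library labelled mutant replicate 3. With erythroid genes removed and each library rescaled to the same sum, the log2 fold change was -0.26 (SE 0.11, unadjusted p = 0.0527). The long row Ldb3-201 (14 exons, 723 codons) held 69.7% ± 2.16 (SD, n = 3) of the gene in control and 72.5% ± 1.29 in mutant hearts, and the short row Ldb3-203 (8 exons, 327 codons) held 26.8% ± 1.69 and 25.2% ± 1.07. Their log2 fold changes of -0.22 (SE 0.11) and -0.35 (SE 0.15) were not called, except that Ldb3-203 passed the unadjusted threshold without control replicate 2 (unadjusted p = 0.0275) and without the library labelled mutant replicate 3 (0.0309), and Ldb3-201 without control replicate 2 (0.0406). The 15-exon row Ldb3-205, at an FPKM of 3.68, 2.05 and 2.12 in control and 1.45, 1.35 and 1.35 in mutant libraries, was lower at the unadjusted threshold (log2 fold change -0.57, SE 0.20, unadjusted p = 0.0289), a call lost without mutant replicate 1 (unadjusted p = 0.0588), mutant replicate 2 (0.0691) or the library labelled mutant replicate 3 (0.0674).

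The other 3 Z-disc members were not called. Actn2 (ENSMUSG00000052374), the sarcomeric α-actinin, had an FPKM of 207, 182 and 243 in control and 177, 182 and 198 in mutant libraries, with overlap and a log2 fold change of -0.17 (SE 0.12, adjusted p = 0.539, limma). It ran from -0.27 without control replicate 2 to -0.07 without control replicate 3, and was -0.22 without the library labelled mutant replicate 3, with no call. A single row of 21 exons carried essentially all of it. Csrp3 (ENSMUSG00000030470), which encodes muscle LIM protein, a partner of telethonin linked to the sensing of stretch, had 291, 255 and 307 in control and 283, 306 and 249 in mutant libraries. The groups overlapped throughout, and the log2 fold change of -0.03 (SE 0.11, adjusted p = 0.939, limma) took the other sign, at 0.05, without the library labelled mutant replicate 3 and, at 0.03, without control replicate 3.

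Nebl (ENSMUSG00000053702) encodes nebulette, which ties actin filaments to the Z-disc in the heart. Its FPKM was 154, 191 and 161 in control libraries, 112 and 141 in mutant replicates 1 and 2, and 163 in the library labelled mutant replicate 3, which lay within the control range as Mrps5 did. The log2 fold change was -0.29 (SE 0.15, unadjusted p = 0.0804, adjusted p = 0.393, limma), and -0.42 (unadjusted p = 0.0178, adjusted p = 0.214) without that library, against -0.15 (unadjusted p = 0.283) without mutant replicate 1. Nebl-210 (13 exons) and Nebl-202 (28 exons, 1014 codons) held 53.9% and 40.8% of the gene in control and 54.1% and 43.3% in mutant hearts. Nebl-213, a row of 4 exons, varied among libraries of 1 group, from 0.445 to 12.7 in control and from 0.231 to 5.95 in mutant libraries, and was not called (log2 fold change -1.33, SE 1.05, and -2.34 with unadjusted p = 0.0330 without control replicate 1). Nebl-201, a row of 7 exons and 270 codons, stayed between 0.298 and 1.38 and was not tested.

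Of the 2 M-band members, Myom1 was the 1 that was tested. Myom1 (ENSMUSG00000024049) encodes myomesin-1, the crosslinker of myosin filaments and titin. Its FPKM was 121, 101 and 118 in control libraries and 82.4, 84.0 and 91.9 in mutant libraries, the last being the library labelled mutant replicate 3. No mutant library reached the lowest control. Control and mutant means were 113 ± 10.9 and 86.1 ± 5.08 (SD, n = 3 each), with a log2 fold change of -0.39 (SE 0.10, unadjusted p = 0.00377, adjusted p = 0.161, limma). Without that library it was -0.44 (adjusted p = 0.110, limma). Myom2 (ENSMUSG00000031461), which encodes the myomesin of fast muscle and the adult heart, had an FPKM of 0.228, 0.127 and 0.286 in control and 0.574, 0.378 and 0.204 in mutant libraries. These values rested on 12.4 to 57.4 estimated fragments, the groups overlapped, and the gene was not tested.

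The embryonic form of myomesin-1 contains an extra elastic segment, the EH segment, encoded by an exon that is left out in the adult heart. The rows of Myom1 differ by 1 such exon, shown because it is present in the most abundant row alone. It is exon 18 of Myom1-202 in GENCODE M21, a coding exon absent from Myom1-203 and Myom1-201. Its length of 294 bases is a multiple of 3, while its ends lie within codons, since a reading from its first base meets a stop. The exon is in capitals, and the 3 bases on either side are those of the neighbouring exons in the transcript.
Myom1-202 exon 18, GRCm38 chr17:71082203-71082496, plus strand: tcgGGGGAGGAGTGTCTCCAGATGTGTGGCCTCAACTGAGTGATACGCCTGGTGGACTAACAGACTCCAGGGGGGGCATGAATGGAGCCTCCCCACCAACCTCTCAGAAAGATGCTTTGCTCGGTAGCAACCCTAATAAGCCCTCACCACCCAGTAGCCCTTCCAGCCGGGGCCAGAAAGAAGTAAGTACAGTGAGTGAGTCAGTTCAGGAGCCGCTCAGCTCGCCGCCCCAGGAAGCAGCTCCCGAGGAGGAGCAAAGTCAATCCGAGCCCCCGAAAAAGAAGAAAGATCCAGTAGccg
Myom1-202, with this exon, had an FPKM of 108, 86.9 and 97.9 in control and 68.3, 69.0 and 78.3 in mutant libraries, which did not overlap, and a log2 fold change of -0.43 (SE 0.11, unadjusted p = 0.00601, adjusted p = 0.376, limma). Myom1-203, without it, had 11.2, 12.8 and 19.0 in control and 13.0, 13.9 and 12.6 in mutant libraries, with overlap and a log2 fold change of -0.08 (SE 0.19, unadjusted p = 0.684). Myom1-201, also without it, had 1.6, 1.37 and 1.37 in control and 1.14, 1.02 and 0.968 in mutant libraries, which did not overlap, and its log2 fold change of -0.26 (SE 0.13, unadjusted p = 0.10) was not called. The row with the exon held 86.1% ± 3.33 (SD, n = 3) of the gene in control and 83.4% ± 1.58 in mutant hearts. These shares overlapped, so a difference between the rows in their response was not shown.

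Over all members, 10 of 24 tested transcript rows were lower at an unadjusted p under 0.05, against 6.22% of all rows tested, and none was higher, against 4.02%. None passed the adjusted threshold, which 0.0344% of all rows did. Besides 6 of Ttn, these were 1 each of Ldb3, Myoz2, Tcap and Myom1. A further 5 of the 45 member rows were listed at 0 in every library.

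Members that share a structure were compared as log2 ratios in 6 fixed pairs, by an exact two-sided permutation test over 3 against 3 libraries, which cannot go below p = 0.1. Csrp3 relative to Tcap was 3.40, 3.42 and 3.36 in control libraries, 4.52 and 4.43 in mutant replicates 1 and 2, and 3.61 in the library labelled mutant replicate 3. The groups did not overlap, at a difference of 0.79 with exact p = 0.1 and adjusted p = 0.2 over the 6 pairs. Without the library labelled mutant replicate 3 the difference was 1.08. Myoz2 relative to Actn2 did not overlap either, from -2.37 to -2.27 in control and from -2.59 to -2.42 in mutant libraries, a difference of -0.17 (exact p = 0.1, adjusted p = 0.2), and -0.12 without the library labelled mutant replicate 3. Myom2 relative to Myom1 was higher by 0.58 without overlap (exact p = 0.1, adjusted p = 0.2), and by 0.72 without that library. Myom2 itself overlapped and lay below the filter, so the added 1 sets the size of this ratio, which was 0.98 when 0.1 was added instead. Tcap relative to Ttn, Ldb3 relative to Actn2 and Nebl relative to Actn2 overlapped, with differences of -0.31, -0.11 and -0.12 and exact p of 0.5, 0.5 and 0.7. When 1 library was left out, Tcap relative to Ttn ran from -0.60 (without the library labelled mutant replicate 3) to -0.05 (without mutant replicate 1), Ldb3 relative to Actn2 from -0.21 to -0.03 (without control replicates 3 and 1) and Nebl relative to Actn2 from -0.26 to 0.07 (without control replicates 3 and 2). Without the library labelled mutant replicate 3 the last 2 differences were -0.13 and -0.20. All ratios were of log2(FPKM + 1).

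The members were then set against a list of cardiomyocyte genes, because the cardiomyocyte markers were also lower. From each library the mean log2(FPKM + 1) of 18 cardiomyocyte genes was subtracted, among them troponins, myosins, cardiac actin and the transcription factors Nkx2-5, Tbx5 and Gata4. Many of the 18 are sarcomere genes like the members, and 10 were themselves lower and 1 higher at an unadjusted p under 0.05. A decrease that the members share with them is therefore subtracted too. The 18 also hold Nppa, a natriuretic peptide gene that was higher in mutant hearts (log2 fold change 0.70, SE 0.24, unadjusted p = 0.0179, adjusted p = 0.240, limma). The subtraction moved the median log2 difference of all genes to 0.25, and 0.965% of all genes were then lower and 30.0% higher at an unadjusted p under 0.05. At an adjusted p under 0.05 the share was 1.07%, and no member was among those genes. At the unadjusted threshold Tcap was the 1 member called, with a log2 difference of -0.55 (SE 0.15, unadjusted p = 0.00265, adjusted p = 0.0760, limma). Tcap minus the cardiomyocyte mean was -3.86, -3.89 and -3.78 in control libraries, -4.56 and -4.53 in mutant replicates 1 and 2, and -4.09 in the library labelled mutant replicate 3, so the groups did not overlap. On this scale 1.2% of all genes were lower and 32.4% higher without overlap. Without that library the difference was -0.70 (SE 0.12, adjusted p = 0.0105, limma), in a fit that called 17.6% of all genes.

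Ttn was at -0.25 on this scale (SE 0.18, unadjusted p = 0.202), Myom1 at -0.12 (SE 0.12, unadjusted p = 0.304), Myoz2 at -0.08 (SE 0.12, unadjusted p = 0.517), Nebl at -0.03 (SE 0.15, unadjusted p = 0.865) and Ldb3 at -0.01 (SE 0.12, unadjusted p = 0.902). None of these 5 differences passed the unadjusted threshold, which does not show that they are 0. Myom1 was lower in every mutant library without overlap, by a small amount, while the others overlapped. Actn2 was at 0.09 (SE 0.13, unadjusted p = 0.473) and Csrp3 at 0.24 (SE 0.15, unadjusted p = 0.131). Ttn was called without mutant replicate 1 (log2 difference -0.42, unadjusted p = 0.0379; 1.58% of all genes were lower), and was at -0.10 (unadjusted p = 0.586) without the library labelled mutant replicate 3. Csrp3 was called without that library (log2 difference 0.38, unadjusted p = 0.0196), in a fit where 45.6% of all genes were higher and their median was 0.32, so this call does not set Csrp3 apart. Neither passed the adjusted threshold there. Without the same library Myom1 was at -0.11, Myoz2 at -0.02, Nebl at -0.09, Ldb3 at -0.03 and Actn2 at 0.11, none of them called. When 1 library was left out, Myom1 ran from -0.16 to -0.10, Myoz2 from -0.15 (without mutant replicate 1) to -0.02, Actn2 from 0.06 to 0.16 (without control replicates 2 and 3) and Csrp3 from 0.16 (without mutant replicate 1) to 0.38. With a list of cardiac transcription factors in place of the 18 genes, the median of all genes was 0.19 and Tcap was again the 1 member called (log2 difference -0.61, SE 0.15, unadjusted p = 0.00261, adjusted p = 0.0968, limma), where 1.74% of all genes were lower and 24.8% higher at the unadjusted threshold. On that scale Ttn was at -0.30 (unadjusted p = 0.112), Myom1 at -0.18, Myoz2 at -0.13, Nebl at -0.08, Ldb3 at -0.07, Actn2 at 0.04 and Csrp3 at 0.19.

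**Figure D3:**
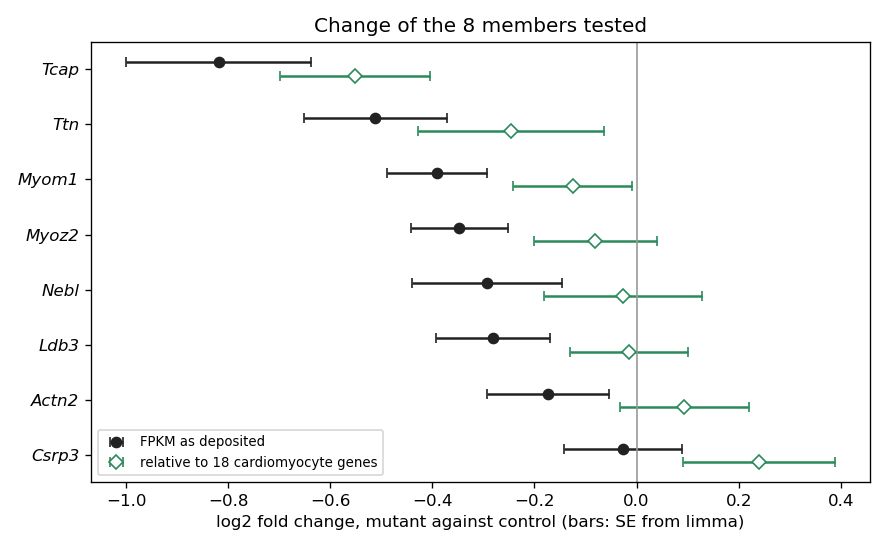
Log2 fold change of the 8 members tested, mutant against control, with SE from limma as bars, for FPKM as deposited (filled circles) and relative to 18 cardiomyocyte genes (open diamonds). All 8 filled circles are below 0, from -0.82 for Tcap to -0.03 for Csrp3, and on the relative scale Tcap, at -0.55, lies farthest below 0.

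By library, the median deviation of the 8 tested members from their control means was 0.03, -0.16 and 0.09 log2 in control libraries, -0.39 and -0.31 in mutant replicates 1 and 2, and -0.24 in the library labelled mutant replicate 3. The 18 cardiomyocyte genes were at 0.02, -0.14 and 0.14 in control libraries, -0.45 and -0.29 in mutant replicates 1 and 2, and -0.18 in that library. The erythroid share was 23.5% and 10.8% in mutant replicates 1 and 2 and 22.0% in the library labelled mutant replicate 3, and the members were also tested with erythroid genes removed and libraries rescaled. The log2 fold changes were then -0.49 for Ttn, -0.79 for Tcap, -0.32 for Myoz2, -0.37 for Myom1 and -0.26 for Ldb3, against -0.51, -0.82, -0.35, -0.39 and -0.28 before. Of these 5, all but Ldb3 (unadjusted p = 0.0527) were lower at the unadjusted threshold, as were 7.95% of all genes, with 7.28% higher.

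**Figure D4:**
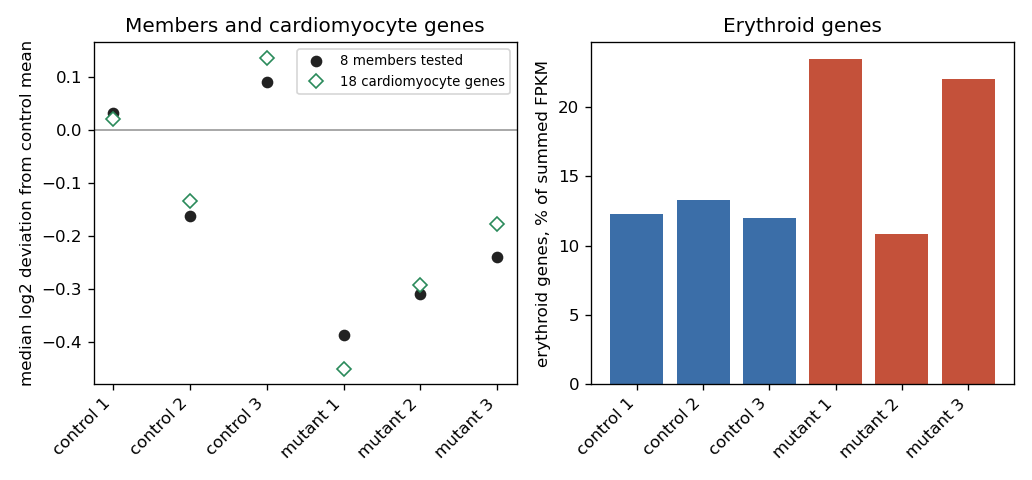
Left, median log2 deviation from the control mean of the 8 members tested (filled circles) and of 18 cardiomyocyte genes (open diamonds) in each of the 6 libraries. Right, erythroid genes as % of summed FPKM, in bars from 0. Both medians are below every control in the 3 mutant libraries, and the erythroid share is 23.5%, 10.8% and 22.0% there.

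Other genes of the same structures were taken from lists of 49 genes, 43 of them tested, and 22 were lower and 1 was higher at an unadjusted p under 0.05, with none past the adjusted threshold and a median log2 fold change of -0.27. Over all genes 9.43% were lower and 5.58% higher with a median of -0.02, and of the 18 cardiomyocyte genes 10 were lower and 1 higher with a median of -0.32, so the lower values were not shown to be particular to these structures. Without the library labelled mutant replicate 3, 25 of the 43 were called. Myot, Myoz3, Xirp2, Myom3, Ankrd2 and Neb did not pass the filter on low values. Of the 23 calls, 15 stood whichever 1 library was left out and 8 were lost without some library. Of 21 other Z-disc genes tested, 10 were lower and none was higher (median -0.27). Mypn, encoding myopalladin, had 2.93 ± 0.502 (SD, n = 3) FPKM in control and 1.46 ± 0.610 in mutant hearts (log2 fold change -0.70, SE 0.19). Nrap, a scaffold of myofibril assembly, had 9.30 ± 1.98 and 5.62 ± 0.449 (-0.62, SE 0.15), and Fhl2, a LIM protein that binds titin, had 51.6 ± 4.70 and 37.5 ± 5.50 (-0.46, SE 0.12). Csrp2 (-0.35), Nexn (-0.33) and Myoz1 (-0.46) were also lower. Desmin (Des), the most abundant, had 131 ± 19.5 in control and 122 ± 10.3 in mutant hearts (-0.09, SE 0.12, unadjusted p = 0.500). The α-actinins of non-muscle cells, Actn1 and Actn4, were named after their values were seen, as relatives of Actn2, and stood at 0.01 (SE 0.08) and 0.17 (SE 0.09).

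Of 8 other M-band genes tested, 6 were lower and none was higher (median -0.35). Cmya5, encoding myospryn, had 5.01 ± 0.676 (SD, n = 3) FPKM in control and 2.82 ± 0.945 in mutant hearts (log2 fold change -0.68, SE 0.18). Obsl1, which links titin to myomesin, had 49.6 ± 4.87 and 37.5 ± 2.33 (-0.39, SE 0.10). Lrrc39, or myomasp, a partner of myosin at the M-band, had 17.1 ± 0.357 and 12.5 ± 1.55 (-0.43, SE 0.10). Trim55, the ubiquitin ligase MuRF2 and the most abundant of these genes, was at -0.30 (SE 0.09), and Nbr1, which binds the titin kinase domain, at -0.21 (SE 0.08). The call of Nbr1 was lost without control replicate 1 (unadjusted p = 0.0911), control replicate 2 (0.114), mutant replicate 1 (0.0588) or the library labelled mutant replicate 3 (0.0843).

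Of 8 genes tested from the titin spring and the filament ends, 2 were lower and 1 was higher (median -0.16). Smpx, a small protein of striated muscle, had an FPKM of 208, 203 and 224 in control libraries, 91.6 and 119 in mutant replicates 1 and 2, and 155 in the library labelled mutant replicate 3. No mutant library reached a control, and the log2 fold change was -0.82 (SE 0.17, unadjusted p = 0.00123, adjusted p = 0.128, limma). Lmod2, a leiomodin that lengthens thin filaments, was at -0.36 (SE 0.09). Ankrd1, the stretch-responsive ankyrin repeat protein that binds the titin spring and the most abundant gene of its list, had 252, 290 and 286 in control libraries, 439 and 541 in mutant replicates 1 and 2, and 295 in the library labelled mutant replicate 3. That library was barely above the highest control, and the log2 fold change was 0.58 (SE 0.20, unadjusted p = 0.0202, adjusted p = 0.251, limma). Of all genes, 7.74% were higher without overlap. The call of Ankrd1 was lost without control replicate 1 (unadjusted p = 0.0658), mutant replicate 1 (0.0594) or mutant replicate 2 (0.0631, log2 fold change 0.38).

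Of 6 genes of titin splicing and protein folding, 4 were lower and none was higher (median -0.29). Smyd1, a methyltransferase needed for myofibril assembly, had 103 ± 5.67 (SD, n = 3) FPKM in control and 69.9 ± 13.7 in mutant hearts (log2 fold change -0.57, SE 0.14), and Unc45b, the myosin chaperone, had 46.8 ± 5.79 and 32.5 ± 6.86 (-0.53, SE 0.16). Rbm20, the splicing factor that promotes skipping of titin spring exons, was at -0.34 (SE 0.14), and Rbm24, a regulator of muscle splicing, at -0.23 (SE 0.10). Both splicing factor calls were lost without control replicate 1 (unadjusted p = 0.135 and 0.119, with Rbm20 at -0.20), control replicate 3 (0.0575 and 0.133), mutant replicate 1 (0.0870 and 0.138) or mutant replicate 2 (0.116 and 0.0644). Hspb7, a small heat shock protein and the most abundant, was not called at -0.23 (SE 0.11, unadjusted p = 0.0717).

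**Figure D5:**
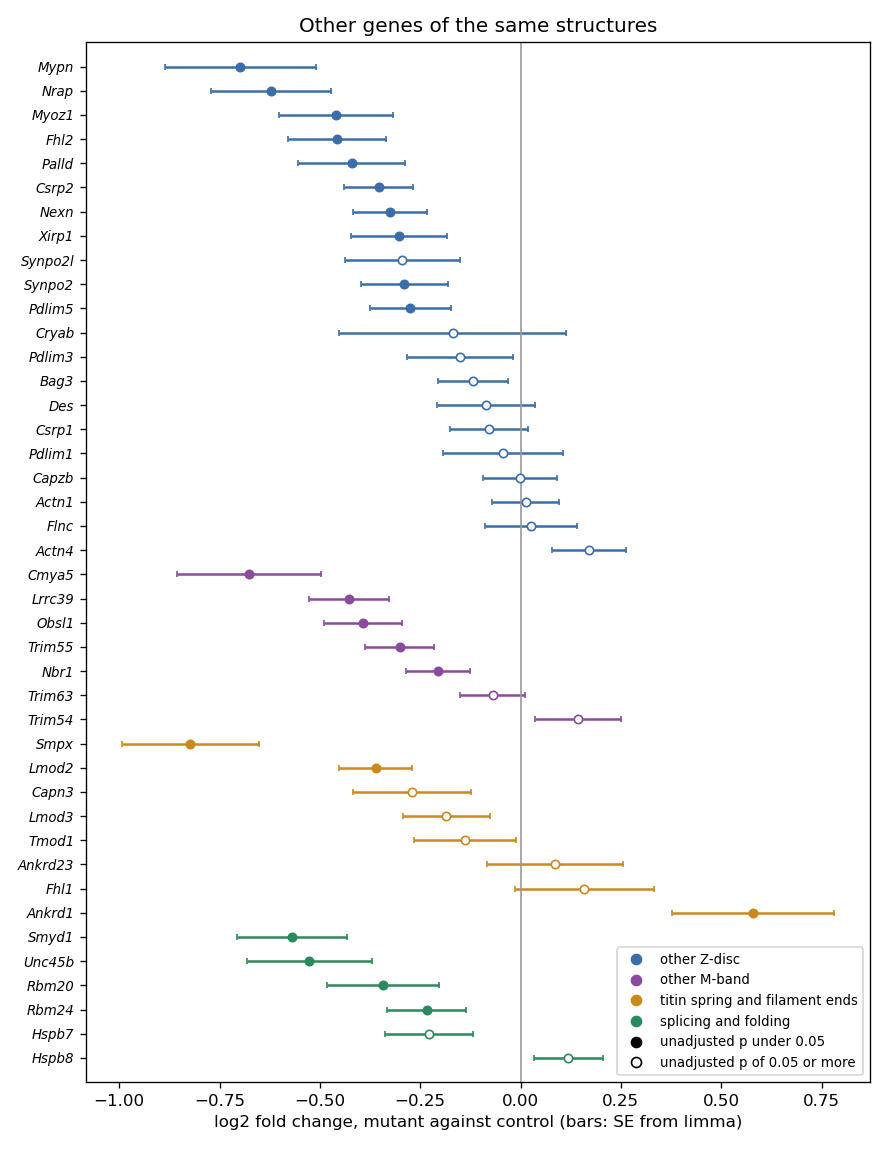
Log2 fold change, mutant against control, with SE from limma as bars, for 42 of the 43 other genes tested, in 4 lists (colours). Filled points have an unadjusted p under 0.05: 21 lie below 0 and 1, Ankrd1 at 0.58, lies above it.

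The genes whose values over the 6 libraries ran closest to those of Ttn were found among 9033 non-member genes whose mean FPKM was 5 or more, by the root mean square difference of log2 values centred on each gene's own mean. The nearest included Adamts6 (0.0557), Gm19426 (0.0766), Grk3 (0.0797) and B930095G15Rik (0.0801). Among the members, Myom1 (0.183, with 270 genes closer) and Myoz2 (0.191, with 330 closer) were nearest to Ttn, and Tcap (0.378, with 6734 closer) was farthest. Closest to the median of the 8 tested members were Trmt2b (0.0317), Pde4dip (0.0408), Gas2l3 (0.0413), Usp28 (0.0431) and Cmc2 (0.0432). Likeness over 6 libraries is a description and these genes share the same libraries and depth.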

How the data were processed

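RNA of whole hearts was sequenced in 3 control and 3 mutant libraries. Per the labels, ribosomal RNA was removed and strand was kept by dUTP, and the labels call the replicates biological. The authors deposited 1 table of FPKM per transcript. The submitters' processing notes name HISAT2, StringTie 1.3.1, Bowtie2 2.2.8, Cuffdiff 2.1.1 and mm9, without saying which made the table. The annotation release is not given in the sources used here, and transcript names, lengths and exons were taken from GENCODE M21. Depth was estimated from the step between low values of FPKM × length in single-transcript genes.

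FPKM were summed per gene, 1 was added, and log2 values were tested with limma 3.58.1 (R 4.3.3, eBayes with trend) over 13262 genes whose FPKM was 1 or more in 3 or more of 6 libraries, with Benjamini-Hochberg adjustment. On this scale the change of low genes is understated. The procedure was tested on simulated data. Estimated fragments bear counting error only.

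Members and lists were chosen with earlier results of these data known. The text names all members, from each other list the genes at an unadjusted p under 0.05 (at most 6 with the smallest p) and the most abundant one, the 5 genes nearest in pattern, and up to 4 transcripts per member. Alternatives were another pseudocount (0.1), other filters, no trend, median centring, removal of erythroid genes, the most abundant transcript alone, a replicate block, and leaving out each library. The results of 1 gene are not reported here by name and are part of counts only.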

Additional observations from a re-analysis of the deposited data

How the results depend on the processing

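The 8 member fold changes were recomputed under 15 alternatives, 120 values in all. Of these, 2 reversed, both of Csrp3, whose log2 fold change ran from -0.10 to 0.052 when 1 library was left out (0.03 without control replicate 3), and 1 passed the adjusted threshold, Tcap without the library labelled mutant replicate 3. The members lower at the unadjusted threshold numbered between 4 and 6 when 1 library was left out, the wider list between 16 and 25 called, and the member transcripts between 10 and 13. Members called relative to the cardiomyocyte genes numbered 1 to 2, and the log2 fold change of Mrps5 ran from -0.66 to -0.23. Relative to cardiomyocyte genes, Ldb3 ran from -0.050 to 0.040, reversing without control replicate 1, and Nebl from -0.11 to 0.13, reversing without control replicate 2 and, at 0.05, without mutant replicate 1. The ratio of Nebl to Actn2 ran from -0.26 to 0.072, reversing without control replicate 2. The cause of these reversals was not tested.

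Over all genes, 1991 were called at the unadjusted threshold, 1314 with a mean FPKM of at least 5, where fewer genes were tested, and 1216 to 2166 when 1 library was left out. At the adjusted threshold 11 genes were called, 5 with no filter on low values, 6 without the trend, 4 with the most abundant transcript alone, 7 with transcripts weighted by length and 4 with the replicate block. Leaving out 1 library gave 5 to 269, with 119 without mutant replicate 2 and 269 without the library labelled mutant replicate 3.

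Replicate numbers were not taken as pairs, since deviations of same-numbered libraries correlated at 0.215, 0.108 and 0.0892 and the third did not exceed 0.1, the line set for pairing. This does not show that the libraries were unpaired. Every library correlated best with its own number, a hint from the data and not the design. With the replicate block, 6 members (Nebl added, unadjusted p = 0.0430, limma), 25 genes of the wider list and 12 member transcripts were called, and 2217 of all genes. Mrps5 was then also lower at the unadjusted threshold (unadjusted p = 0.0327, adjusted p = 0.252, limma). Depth limits Myom2, whose values rest on few fragments.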
